A study of Mus musculus with 2 samples.

Results

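The genes described here are those of respiratory complex I whose official mouse symbol begins with Nduf, the structural subunits and the Ndufaf assembly factors. They were found by matching the RefSeq accession of each non-control array probe to a current symbol. Of 54 such genes in the reference, 46 had at least 1 probe, out of 20618 genes named on the array. They fall into 7 core subunits, 10 accessory subunits of the matrix arm, 19 accessory subunits of the membrane arm, 8 assembly factors, and Ndufa4 and Ndufa4l2, which carry the family name but are not counted as complex I subunits here.

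The samples were bone marrow cells of a mouse leukaemia of the B lineage (B-ALL, acute lymphoblastic leukaemia), sorted by the signal of SoNar, a fluorescent sensor that follows the cytosolic NADH to NAD+ ratio. SoNar-high cells and SoNar-low cells were each measured on 1 Agilent 1-colour array, and both samples came from C57BL mice of 8 weeks. The sample titles read N-myc-high and N-myc-low, and the labels explain neither this name nor how the leukaemia was made, whether animals were pooled, or which promoter drives the sensor. With 1 array per group there was no replicate, no test was made, and every difference below compares 2 arrays, which limits the precision.

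Complex I (NADH:ubiquinone oxidoreductase) oxidises NADH in the mitochondrial matrix, passes the electrons through a flavin and a chain of iron-sulphur clusters to ubiquinone, and pumps protons across the inner membrane. Its core subunits, conserved from bacteria, do the chemistry, while the accessory subunits surround and stabilise them. Assembly factors join the modules or modify subunits and are absent from the finished enzyme. Because the enzyme returns NADH to NAD+, it stands close to the quantity by which these cells were sorted, although SoNar reads the cytosol and complex I works in the matrix.

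Most complex I subunit genes were somewhat dimmer on the SoNar-high array, and none of them differed by 2-fold except with median scaling, which put 17 subunits and 31.4% of all genes at least 2-fold lower. As scaled here, 32 of the 36 subunit genes had a negative log2 difference (SoNar-high minus SoNar-low) and 4 a positive one. Of the 36, 27 lay below the median of all genes. A further limit is that 8 of the 36 lay within 0.15 of 0, the SD between repeat spots of a probe. The median difference of the subunits was -0.35, with a range from -0.74 for Ndufa1 to 0.28 for Ndufa8. The 10517 genes measured on both arrays had a median of -0.17, and 63.2% of them lay below 0. Most subunits were bright, and bright genes lay lower as a whole. Among genes with a mean level (defined below) of 2 or over, the median was -0.34 for all genes and -0.47 for the 30 subunits there. In that range 80.6% of all genes and 90.0% of the subunits lay below 0. The 8 assembly factors were more scattered, with a median of -0.16 and a range from -0.76 for Ndufaf7 to 1.08 for Ndufaf5. Across the 13 ways of processing that were tried, the subunit median lay below 0 and below the median of all genes in each, whereas the assembly factor median was 0.06 when the 75th percentile was computed from spots that both arrays detected and 0.01 after centring on the median of all genes.

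A level is the log2 of a spot's processed signal, in arbitrary intensity units, over the 75th percentile of its array, a signal of 525.0 for SoNar-high and 474.8 for SoNar-low. Of the 43020 spots that are not controls, the SoNar-high array measured 72.9% well above background, the SoNar-low array 44.8%, and 0 were saturated. Each array had a scan session of its own, and session and group therefore cannot be told apart. Repeat spots of the same probe, available for 193 probes measured on both arrays, differed in their log2 difference with a median SD of 0.15. The scanner software's own spot error carries to an error of 0.20 to 0.31 in the log2 difference of a measured Nduf probe. Both figures describe spots within an array and not the spread between cell samples. As a check of the labels, 8 of 10 B lineage markers were well above background on both arrays (Cd79b among them), while Igll1 and Rag1 were so on neither. Of the 20618 genes named on the array, 10517 were measured on both. All 8 neutrophil markers were measured as well, and 7 of the 8 had a positive difference. So had 2 of the 8 measured B lineage markers and 3871 of all 10517 genes. The summed scaled signal of the neutrophil markers was 48.0 times the 75th percentile for SoNar-high and 39.3 times for SoNar-low (B lineage, 67.0 against 83.7). The part of such other cells in the values below was not tested, and fewer cells of a type cannot be told apart from less RNA per cell.

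**Figure D1:**
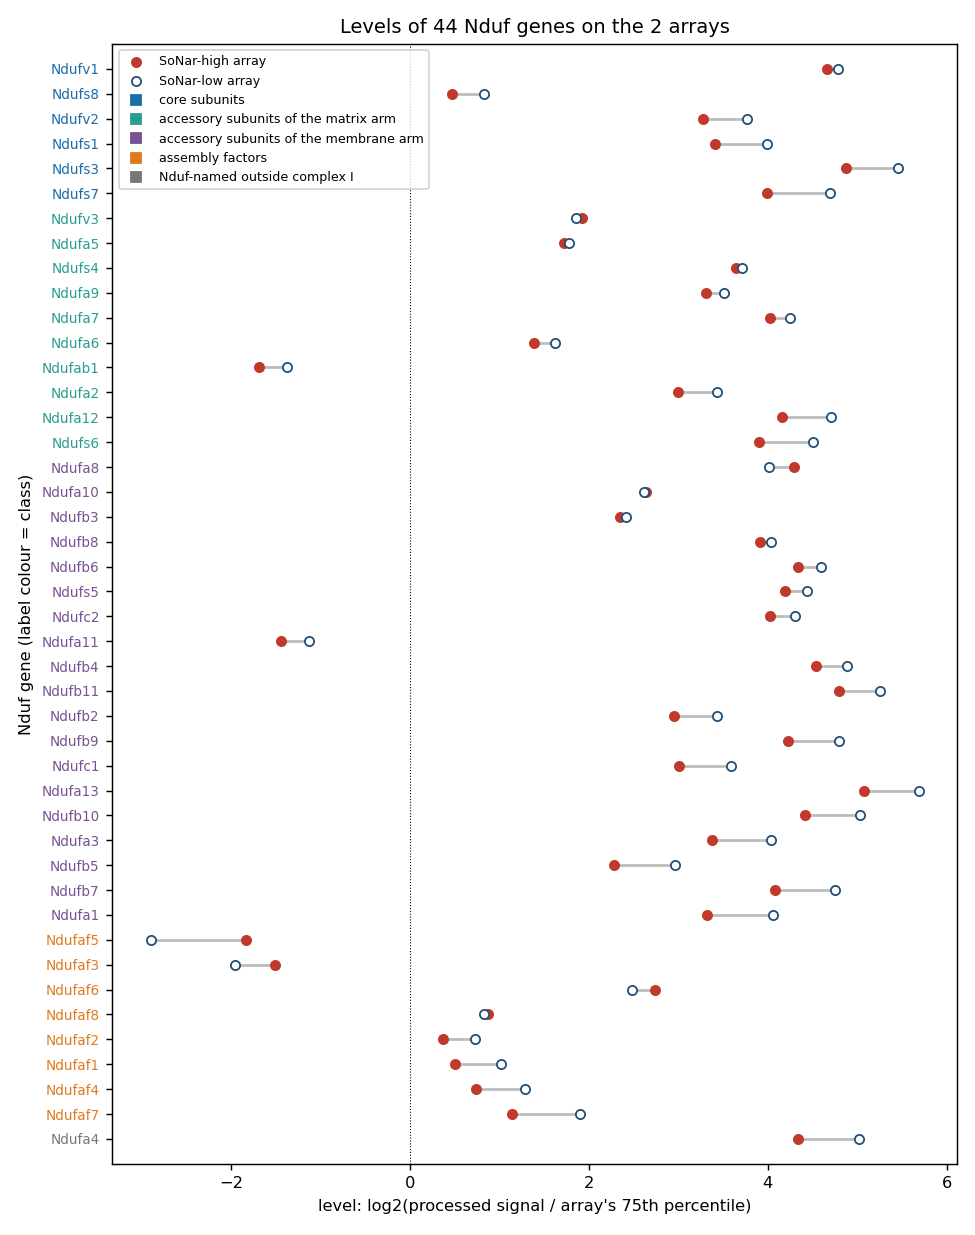
Level of 44 of the 45 measured Nduf genes on the SoNar-high array (filled points) and the SoNar-low array (open points), as log2 of the signal over the array's 75th percentile. Label colours give the class; most subunits lie further left on the SoNar-high array, while Ndufaf5 and Ndufaf3 lie further right there under this scaling (Ndufaf3 was at -0.17 with median scaling).

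The 7 core subunits had a median difference of -0.50. The lowest, at -0.71, was Ndufs7, one of the subunits that form the ubiquinone site and the carrier of the last iron-sulphur cluster, with a signal of 8320 in SoNar-high and 12334 in SoNar-low. Next was Ndufs3, a scaffold of the same module, with 15336 against 20888 and a difference of -0.59. Ndufs1, which holds several of the iron-sulphur clusters on the way from NADH, had 5566 against 7531 and a difference of -0.58. These gaps from 0 exceeded both the repeat-spot SD and the software's error, in a single pair of arrays. Both yardsticks describe spots within an array, and the genes were named for being the lowest of their class. Among all genes with a mean level of 2 or over, the lower quartile of the difference was -0.58. Nearer to 0, Ndufv1, the flavin subunit that binds NADH, had signals of 13282 and 13080 and a difference of -0.12, within the repeat-spot SD of 0. Ndufv2, the partner of Ndufv1, had 5086 against 6495 and a difference of -0.50, and Ndufs8, a ferredoxin-like subunit, had 727 against 844 and -0.36. The pair that takes up NADH thus held a member near 0 and a member at -0.50.

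The 10 accessory subunits of the matrix arm had a median of -0.23, 9 of them below 0. Ndufs6, a zinc-binding subunit, was the lowest, with a signal of 7827 in SoNar-high and 10796 in SoNar-low, a difference of -0.61. Ndufa12 followed with 9408 against 12422 and -0.55. Ndufa2, which has a thioredoxin-like fold, had 4165 against 5103 and -0.44. Ndufs4, whose loss in mice causes a Leigh-like brain disease, had 6551 against 6200, which is -0.07 after scaling and within the repeat-spot SD. Ndufa6, Ndufa7 and Ndufa9 lay between -0.23 and -0.20. Ndufab1, the mitochondrial acyl carrier protein, which also serves fatty acid synthesis, was at -0.32 from signals of 163 and 183, and at -0.61 with quantile normalization, -0.65 in the authors' table and -0.10 with the percentile of spots that both arrays detected. The highest members by gene mean were Ndufv3 (0.06) and Ndufa5 (-0.06), and in both the mean hides a pair of probes that disagreed.

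The 19 accessory subunits of the membrane arm had a median of -0.45, and 17 lay below 0. Ndufa1, a small single-pass membrane protein encoded on the X chromosome, was the lowest subunit at -0.74 as scaled here, with a signal of 5240 in SoNar-high and 7905 in SoNar-low. Ndufb5 followed at -0.67 over its 2 probes, which had 700 against 1097 and 9346 against 12372. Then came Ndufb7 at -0.67 with 8899 against 12789. Ndufa3 was at -0.65, and Ndufb10 and Ndufa13 were at -0.61. Ndufa13, also known as GRIM-19 from work on cell death, had signals of 17723 and 24475. Ndufb9, Ndufc1, Ndufb2 and Ndufb11, the last also X-linked, lay between -0.58 and -0.45. A middle group of Ndufb4, Ndufa11, Ndufc2, Ndufs5 and Ndufb6 ran from -0.34 to -0.25 as scaled here. Of these, Ndufa11 had dim signals of 193 and 217. It was at -0.56 with quantile normalization, -0.59 in the authors' table and -0.10 with the percentile of spots that both arrays detected. Ndufb8, a subunit that is often blotted as a marker of the assembled enzyme, had signals of 7873 and 7807 and a difference of -0.13, and Ndufb3 was at -0.06. Ndufa10 had signals of 3271 in SoNar-high and 2908 in SoNar-low and was at 0.02. Ndufa8, which faces the intermembrane space and holds paired disulphides, was the highest subunit, with a signal of 10257 in SoNar-high and 7627 in SoNar-low, a difference of 0.28. As scaled here and by gene mean, it was the only subunit with a difference above 0.15. Other subunits passed that value in some settings. Among them were Ndufa10 (0.24 with quantile normalization) and Ndufv3 (0.27 with the percentile of spots that both arrays detected).

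**Figure D2:**
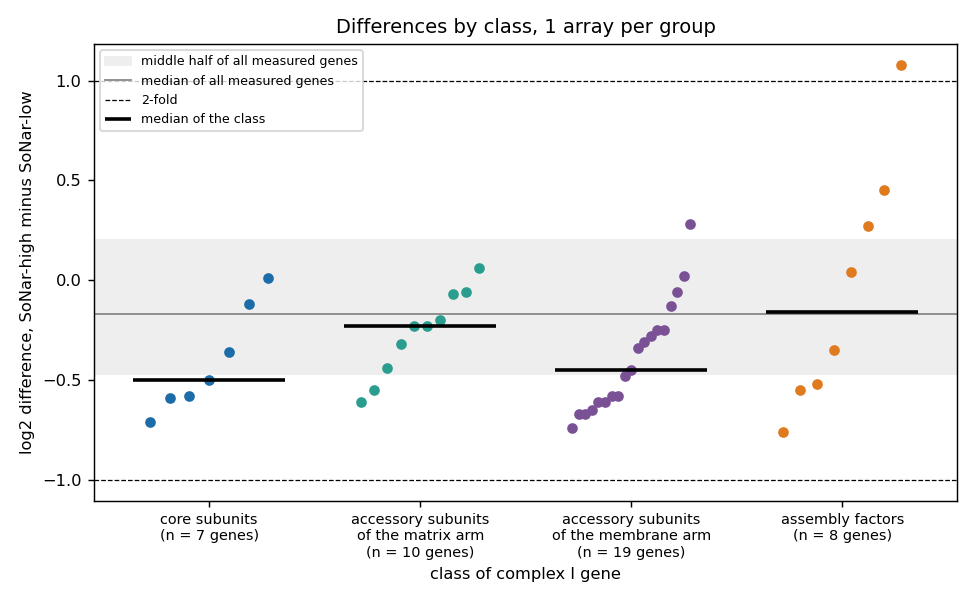
Difference in level (log2, SoNar-high minus SoNar-low) for each measured gene in the 4 classes of complex I genes, with class medians as black bars; the grey band and line are the interquartile range and the median of all measured genes, and dashed lines mark 2-fold. Each class of subunits has its median below that of all genes. For the matrix arm class this gap is -0.06, within the repeat-spot SD of 0.15. Its median of -0.23 lies above the -0.34 of all genes with a mean level of 2 or over. Ndufaf5 is the 1 gene beyond a dashed line.

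The 8 assembly factors split evenly, 4 above and 4 below 0. Ndufaf5, which hydroxylates an arginine of Ndufs7, was at 1.08 (2.11-fold), with a signal of 148 in SoNar-high and 63.5 in SoNar-low. Of the 45 Nduf genes measured on both arrays, it was the 1 that was at least 2-fold higher in SoNar-high, where the share over all genes was 4.87%. None was at least 2-fold lower, where the share over all genes was 1.68%. With median scaling, which lowers every difference alike, the counts were instead 0 higher and 21 lower, where the shares over all genes were 1.32% and 31.4%. The value of Ndufaf5 rests on a dim probe near the lowest detected signal of the SoNar-low array, 46.4, and was 0.35 with normexp background correction, 0.63 with quantile normalization and 0.69 in the table of the authors. Under a stricter filter on dim probes it was not measured.

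The other factors were brighter or less different. Ndufaf3 had a signal of 184 in SoNar-high and 122 in SoNar-low, a difference of 0.45, which was 0.21 with normexp, 0.12 with quantile normalization, 0.11 in the authors' table and -0.17 with median scaling. Ndufaf6, a protein of the phytoene synthase family, had 3519 against 2642 and 0.27. Ndufaf8, the binding partner of Ndufaf5, had 958 against 845 and 0.04, within the repeat-spot SD of 0. On the lower side, Ndufaf7, a methyltransferase of the matrix, had signals of 1153 and 1770 and was at -0.76. This was the lowest of all 45 genes as scaled here. With normexp, however, Ndufaf7 was at -0.61, and Ndufb7, Ndufa1, Ndufb5, Ndufs7 and Ndufb9 lay lower. In the authors' table it was at -0.57, and Ndufab1, Ndufa11, Ndufs7 and Ndufa4 lay lower. Ndufaf4, which works with Ndufaf3 in building the ubiquinone module, was at -0.55 over its 2 probes. Their signals were 2551 against 3816 and 303 against 353. Ndufaf1, part of the complex that assembles the membrane arm, had 744 against 964 and -0.52, and Ndufaf2, a relative of Ndufa12 that acts late, had 679 against 782 and -0.35.

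Set side by side, the subunit median lay 0.19 below the assembly factor median, and the interquartile range was 0.40 for the subunits, 0.84 for the assembly factors and 0.67 for all genes. The gap between the medians was 0.00 under the stricter filter, which drops Ndufaf5 and brings the assembly factor median to -0.35. Probe brightness also moved with the classes. The median level of the subunits was 3.52 in SoNar-high and 4.02 in SoNar-low, against 0.62 and 0.93 for the assembly factors. Across all 10517 genes the difference was lower at higher levels, with a Pearson r of -0.26 between mean level and difference. The r was -0.49 over the 45 Nduf genes, as a description, since the points share the same 2 arrays. Among genes with a mean level of 2 or over, the median was -0.34 for 2651 genes in all and -0.47 for the 30 subunits there, and 27 of those subunits (90.0%) lay below 0, against 80.6% of all genes in that range. The 1 assembly factor in that range was at 0.27. Between levels of 0 and 2, 5 assembly factors had a median of -0.52, 4 subunits one of -0.14 and all 3120 genes one of -0.24. Below 0, 2 assembly factors had a median of 0.76, 2 subunits one of -0.31 and all 4746 genes one of 0.02. Subunits thus lay below assembly factors at both ends of the brightness scale and above them in the middle range, with few genes behind most of these values. The limits of these ranges were chosen after the values had been seen.

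**Figure D3:**
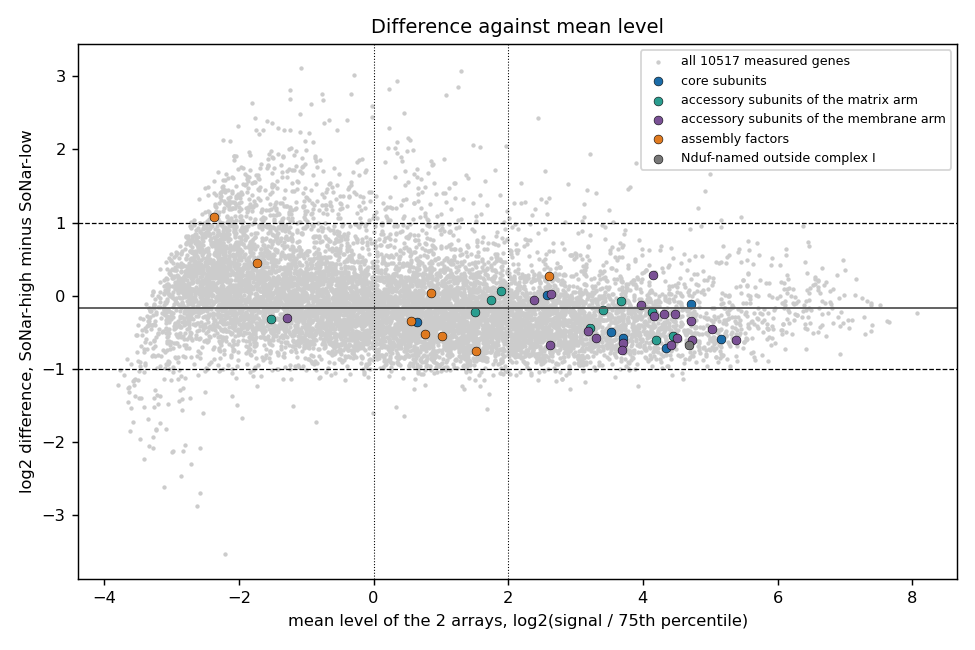
Log2 difference (SoNar-high minus SoNar-low) against the mean level of the 2 arrays for all 10517 measured genes (grey) and the Nduf genes by class (coloured). Dotted lines mark levels of 0 and 2, dashed lines mark 2-fold and the solid line is the median of all genes, -0.17; most subunits sit at the bright end, where the grey cloud lies lower too.

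Several genes were read by more than 1 probe, which gives a check within the gene. Of 45 genes, 39 had 1 probe measured on both arrays and 6 had 2. For 4 of the 6 the probes had the same sign: Ndufb4 (-0.30 and -0.38), Ndufb6 (-0.11 and -0.39), Ndufb5 (-0.55 and -0.79) and Ndufaf4 (-0.37 and -0.73). For Ndufv3, a subunit known to be spliced into a short and a long form, they were opposite. One probe had a signal of 556 in SoNar-high and 294 in SoNar-low, a difference of 0.77, and the other had 7112 against 10128, a difference of -0.66. For Ndufa5 one probe had 817 against 490 and 0.59, and the other 3672 against 5409 and -0.70. In both genes the dimmer probe was the one that was higher in SoNar-high. A gap of at least 1 between the probes thus occurred in 2 of 6 Nduf genes (33.3%), and in 14.2% of the 2021 genes with 2 measured probes. Both probes of a gene carry the same accession, and where they lie in the transcript is not known here, so isoforms were not compared.

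**Figure D4:**
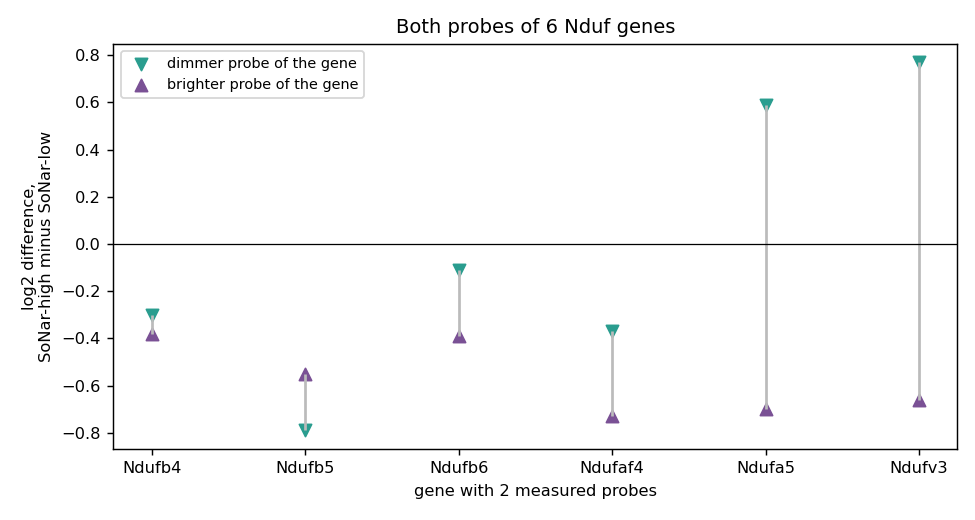
Difference in level (log2, SoNar-high minus SoNar-low) for the dimmer and the brighter probe of each of the 6 Nduf genes with 2 measured probes. The probes of Ndufa5 and Ndufv3 lie on opposite sides of 0, those of the other 4 genes on the same side.

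The remaining 3 probes passed the background limit in SoNar-high alone. That of Ndufa4l2, a paralogue induced by hypoxia, had a signal of 43.3 there and 18.3 on the SoNar-low array. The second probe of Ndufb11 had 21.3 and 10.5, and that of Ndufaf5 24.6 and 11.5. All 3 lay below the lowest detected level of the SoNar-low array on both arrays, so no fold can be given and the detection on the SoNar-high array alone shows no difference. Ndufa4, once taken for a complex I subunit and now placed with cytochrome c oxidase, was at -0.68, with signals of 10626 and 15445.

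Complex I also needs genes outside the Nduf family, and of a list of these 8 were measured. Their median was -0.04, with 3 above and 5 below 0. Timmdc1, an assembly factor of the membrane arm, was the 1 gene past 2-fold, at 1.04 from 1 probe. Of all genes, 4.87% were at least 2-fold higher. Tmem70, which also serves ATP synthase, was the lowest of the 8 at -0.70. Acad9 (0.01) and Ecsit (-0.22), which work with Ndufaf1, lay closer to 0 than Ndufaf1 did, and Foxred1 was at -0.03 and Nubpl, which delivers iron-sulphur clusters, at 0.22. Tmem126b passed the background limit in SoNar-high alone, and the subunits encoded in mitochondrial DNA were not analysed here. The 35 measured genes of complexes III, IV and ATP synthase had a median of -0.23, with 27 (77.1%) below 0 against 88.9% of the complex I subunits. The share of all genes below 0 was 63.2%, and 80.6% among those with a mean level of 2 or over, where 33 of the 35 lay with 81.8% of them below 0. None of these differences was tested. Of the 35, 0 reached 2-fold, where the shares over all genes were 4.87% higher and 1.68% lower.

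The promoters were searched for shared motifs, and those of the highest and lowest subunit and assembly factor are printed because they mark the ends of the range. Each is the 250 bases before the gene's start in RefSeq, build GRCm38.p6, read along the gene 5′ to 3′. Capitals mark a match, on either strand, to any of 4 motifs known from genes of respiration and growth: NRF1 (GCGC, then any base and T, then GCGC), ETS factors including GABPA (CCGGAAG), YY1 (AANATGGC) and the E-box bound by MYC family proteins (CACGTG).

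Ndufa8 promoter (chr2:36049339-36049588, minus strand): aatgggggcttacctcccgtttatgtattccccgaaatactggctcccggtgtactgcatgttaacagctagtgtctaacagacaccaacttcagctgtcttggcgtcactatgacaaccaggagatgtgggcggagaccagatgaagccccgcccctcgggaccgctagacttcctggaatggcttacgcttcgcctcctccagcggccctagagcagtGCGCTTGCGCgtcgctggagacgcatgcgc
Ndufa1 promoter (chrX:37191239-37191488, minus strand): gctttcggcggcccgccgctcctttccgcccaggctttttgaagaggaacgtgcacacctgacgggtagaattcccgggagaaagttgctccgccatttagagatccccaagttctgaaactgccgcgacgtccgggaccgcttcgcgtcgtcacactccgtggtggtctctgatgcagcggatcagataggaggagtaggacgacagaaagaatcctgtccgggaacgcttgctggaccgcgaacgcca
Ndufaf5 promoter (chr2:140170396-140170645, plus strand): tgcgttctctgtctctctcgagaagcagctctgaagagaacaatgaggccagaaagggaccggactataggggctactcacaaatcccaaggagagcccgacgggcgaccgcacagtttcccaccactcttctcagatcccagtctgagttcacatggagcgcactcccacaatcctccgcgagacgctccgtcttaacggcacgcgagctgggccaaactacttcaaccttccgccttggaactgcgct
Ndufaf7 promoter (chr17:78936885-78937134, plus strand): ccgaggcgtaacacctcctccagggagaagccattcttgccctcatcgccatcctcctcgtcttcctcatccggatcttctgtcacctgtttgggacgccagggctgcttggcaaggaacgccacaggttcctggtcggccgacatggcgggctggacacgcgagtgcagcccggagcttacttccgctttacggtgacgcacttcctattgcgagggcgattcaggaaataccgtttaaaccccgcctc

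Of these, Ndufa8 held 1 NRF1 match and the other 3 held none of the 4 motifs. With 1 match in 4 promoters picked from the ends of the range, no relation between match and difference can be judged. Their GC content was 57.2% to 60.0%. Promoters were found for 40 of the 46 genes, with a median GC content of 58.2% against 55.2% over 17492 protein-coding genes. NRF1 matches were found in 7 of the 40 (17.5%), against 5.84% of all coding genes. ETS matches were found in 5 (12.5%, against 10.2%), YY1 matches in 6 (15.0%, against 4.29%) and E-boxes in 2, Ndufa7 and Ndufv1 (5%, against 7.61%). A gene counted when any of its listed starts had a match, in both sets alike, and Ndufa5 and Ndufa7 each have 2 listed starts. Matches to different motifs did not overlap in the Nduf promoters. A match is a description of the letters and not of binding. NRF1 is the nuclear respiratory factor, a textbook regulator of respiratory chain genes, so the matches in the other 6 promoters are shown in capitals with the bases around them.

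Ndufa5 (chr6:24527687-24527736, minus strand): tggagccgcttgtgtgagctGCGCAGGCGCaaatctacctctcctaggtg
Ndufa11 (chr17:56717682-56717731, plus strand): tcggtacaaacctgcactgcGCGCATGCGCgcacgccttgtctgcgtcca
Ndufaf4 (chr4:24897950-24897999, plus strand): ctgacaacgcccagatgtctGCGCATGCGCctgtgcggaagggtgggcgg
Ndufb4 (chr16:37654530-37654579, minus strand): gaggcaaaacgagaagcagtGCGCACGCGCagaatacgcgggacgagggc
Ndufs5 (chr4:123718255-123718304, minus strand): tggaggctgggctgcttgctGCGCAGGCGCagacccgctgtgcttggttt
Ndufs6 (chr13:73328483-73328518, minus strand): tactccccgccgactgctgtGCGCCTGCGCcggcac

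The match lay 6 bases before the start in Ndufs6 and 181 bases before it in Ndufb4, where it is the first of 3 separate matches. The middle of the motif differed between some of the genes. Ndufa11 and Ndufaf4 carried the same 10 letters, and so did Ndufa5 and Ndufs5. The match in Ndufs6 gives the letters of Ndufa5 and Ndufs5 when read on the other strand. The 7 genes with a match had differences from -0.61 for Ndufs6 to 0.28 for Ndufa8, with a median of -0.31, close to the -0.35 of the subunits. The genes with a YY1 match had a median of -0.41 and those with an ETS match one of -0.52, over 6 and 5 genes.

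**Figure D5:**
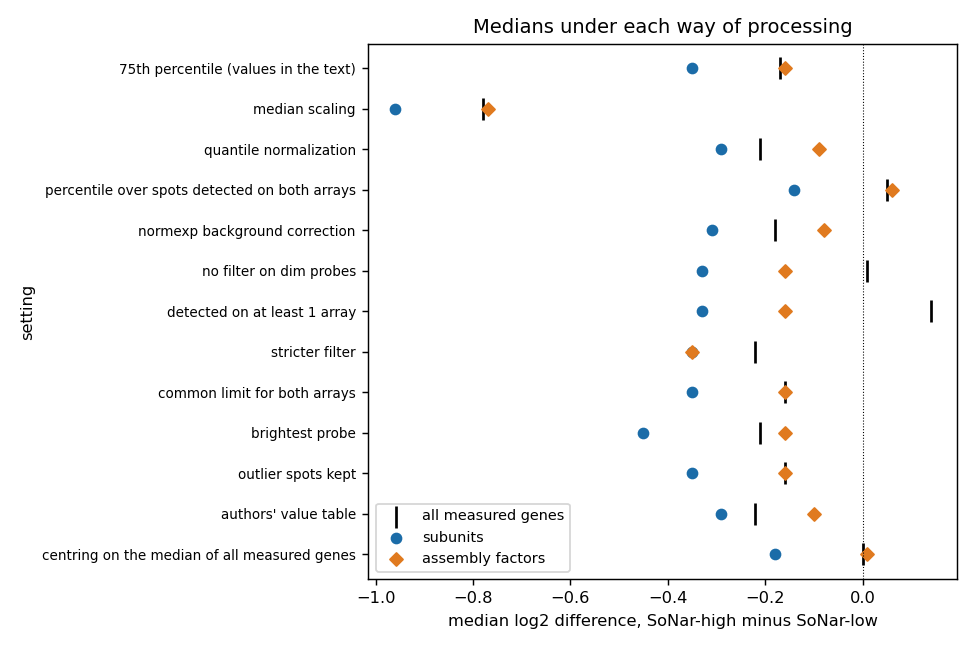
Median difference in level (log2, SoNar-high minus SoNar-low) for the Nduf subunits (circles), the assembly factors (diamonds) and all measured genes (bars) under each way of processing. The subunit median stays left of the bar in every row, while the diamond changes side, and under the stricter filter the diamond covers the circle at -0.35.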

How the data were processed

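Total RNA of 1 SoNar-high and 1 SoNar-low sample was hybridised to 1-colour (Cy3) Agilent mouse arrays. The deposited scanner files hold intensity values, background-subtracted and detrended within the array, per the file headers. These give Feature Extraction 11.0.1.1 as the software; version 9.1 stands in the submitters' processing notes. The authors' deposited table holds log2 values whose distribution is nearly the same in both columns. How it was made is not given in the sources used here, and it served only as an alternative. It correlated with log2 processed signal at r = 0.995 (SoNar-high) and 0.994 (SoNar-low), and both columns have a median of 5.90.

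Levels were log2 processed signal less the array's own 75th percentile, taken without control spots. Spots marked as outliers on either array (685) were removed, and spots of a probe were averaged. Of 39085 probes 27115 matched a gene through unversioned RefSeq accessions (GRCm38.p6 table; the array annotation is of mm9, so gene positions are given only for the promoter sequences). Each gene took the mean of its probes well above background on both arrays. The 2-fold counts use a log2 difference of at least 1 in size. With 1 array in each group, no p-value was computed. A median was said to move with a setting when it changed by more than the repeat-spot SD. The averaging of spots and probes and the 2-fold count were tested on simulated levels. That test kept the real detection calls, so it did not exercise the scaling or the filters on dim probes. The genes named in full are the 2 highest and 2 lowest of each class, those past 2-fold, those detected on 1 array and those with disagreeing probes; others are named where they are described. Of the genes this rule and the marker lists cover, 1 subunit and 1 marker are not reported here by name, though the counts and medians include them. The members, the lists and the classes were chosen with earlier results of these data known. Marker lists of erythroid, T, natural killer, monocyte and stromal cells had 7, 6, 4, 4 and 5 genes on the array. Of these, 3, 3, 2, 2 and 3 were measured, with medians of 1.67, 1.26, 1.17, 0.81 and 0.69. The median of all genes was -0.17. Of the 3 measured T cell markers, 1 lay below 0. The summed scaled signal of the T cell list was 4.14 for SoNar-high and 4.03 for SoNar-low. The alternatives were other scalings, normexp (offset 50), 4 filters on dim probes, outlier spots kept, the brightest probe of a gene and the authors' table. Python 3.11.15, numpy 2.4.6, pandas 2.3.3, matplotlib 3.10.9, R 4.3.3 and limma 3.58.1 were used.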

Additional observations from a re-analysis of the deposited data

How the results depend on the processing

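No paired analysis was possible because there was 1 array in each group, and no array could be left out. The count of Nduf genes at least 2-fold higher, 1 in the values reported, was 0 with median scaling, quantile normalization, normexp, the stricter filter and the authors' table. It was 2 with no filter on dim probes and with detection on at least 1 array, where Ndufa4l2 joined Ndufaf5. The shares over all genes in these 2 settings were 13.5% and 20%. The count at least 2-fold lower was 0 except with median scaling, where it was 21 (31.4% of all genes were that much lower there). Over all genes the higher count, 512, went from 139 to 3203 and the lower count, 177, from 60 to 3306. The subunit and assembly factor medians were -0.96 and -0.77 with median scaling, -0.14 and 0.06 with the percentile of spots that both arrays detected, and -0.18 and 0.01 with centring, which was added after the data were seen. These 3 settings shift all genes alike, taking the median of all genes from -0.17 to -0.78, 0.05 and 0.00. The stricter filter, which drops Ndufaf5, gave an assembly factor median of -0.35 and a gap of 0.00 between subunits and assembly factors. The gap ran from -0.29 to -0.17 in the other settings, and the subunit median relative to all genes from -0.47 to -0.07. Single genes moved by more than the repeat-spot SD in 19 of 45 cases with quantile normalization, in 19 with the authors' table and in 7 with normexp. The cause was not tested for quantile normalization, normexp and the authors' table. Signals near the lowest detected ones (19.7 and 46.4) limit Ndufaf5 and Ndufa4l2. Ndufaf3, with dim signals of 184 and 122, stayed at 0.45 under the stricter filter but was 0.21 with normexp.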

Other observations

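As scaled in the report, the highest and lowest of the 45 measured Nduf genes, Ndufaf5 (1.08) and Ndufaf7 (-0.76), were both assembly factors that act as enzymes on other proteins, a pairing picked out after the values had been seen. With normexp the extremes were instead Ndufa8 (0.41) and Ndufb7 (-0.71), and in the authors' table Ndufab1 (-0.65) was the lowest. Each value rests on 1 probe and 1 pair of arrays. The Ndufaf5 value was 0.35 to 1.29 over the settings that measured it, other than median scaling, and Ndufaf7 lay between -0.76 and -0.55 in the same settings.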
